A study of Mus musculus with 4 samples.

Results

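Untreated RAW264.7 cells, a mouse macrophage line transformed by the Abelson leukaemia virus, gave 1 of the 4 RNA-seq libraries of an actinomycin D time course, and the transcriptome of that library is described here gene by gene. It was chosen by its label, which gives the treatment as untreated. The other 3 libraries came from the same line after 2, 4 and 6 h with the transcription blocker actinomycin D at 10 µg/ml, and the series was made to measure how long mRNAs last. Per the labels, all 4 libraries were made from cytoplasmic RNA after removal of ribosomal RNA, with a kit that keeps the strand. For the untreated cells the labels name no agent and no genetic change. RAW264.7 is a cultured tumour-derived line, so its levels are those of dividing cells and not of macrophages in a tissue.

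Macrophages engulf particles and microbes, digest them in lysosomes, and sense microbial products through Toll-like receptors that signal to NF-kB and interferon regulatory factors. Their identity is set by transcription factors such as PU.1 (Spi1) and the C/EBP and RUNX families, and the receptor for the growth factor CSF1 (Csf1r) keeps them alive. In a steady-state RNA library the level of a transcript reflects both how fast it is made and how slowly it is lost.

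The untreated library held 35669434 counts over a table of 41324 genes, of which 15930 genes had a count above 0. The other 3 libraries held between 12762100 and 70289647 counts. With 1 library there was no replicate, so no test of any difference was made. Every interval printed here is an exact 95% interval, Poisson for levels and binomial for shares. For levels and shares of counts it covers counting error alone. For shares of promoters it treats promoters as independent draws. Some genes have several promoters and some listed genes are near-identical copies, so there it serves only as a description. Levels are given in CPM, that is, counts scaled to a common library total, over the 25508054 counts left after setting aside 4 rRNA-like rows, so that 1 CPM corresponded to 25.5 counts. A count of 0 allowed a level of up to 0.118 CPM, the limit set by 3 counts. CPM gives a gene's share of the counts and grows with its length. Abundance was therefore compared between genes as CPM per kilobase of exon, called the per-length level below, with exon lengths from the GENCODE annotation of the mm10 build. Over the 40 genes in the top 25 by CPM or per length, taking the longest transcript as the length multiplied levels by 1 to 2.24. Some genes outside these moved more, such as Nfkb1 from 17.1 to 49.8.

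The 4 rRNA-like rows took a large share of the library. RP23-81C12.1, a gene with a clone name, received 23.15% of all counts (23.14 to 23.16%), and RP23-81C12.3 received 3.54% (3.539 to 3.551%). The mitochondrial large and small ribosomal RNAs, mt-Rnr2 and mt-Rnr1, took 1.44% and 0.353%. Together the 4 rows held 28.5% of the counts (28.47 to 28.50%), and leaving them out raised the CPM of every other gene by a factor of 1.40.

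Outside these rows the library was spread over many genes. The most abundant gene held 1.14% of the remaining counts, the top 10 held 5.78%, the top 100 held 17.7% and the top 1000 held 51.0%. It took 955 genes to reach 50% of the counts, 2737 genes to reach 75% and 5030 genes to reach 90%. With the rRNA-like rows counted, 304 genes reached 50%, and with counts divided by length 227 genes did, so the breadth of the library depended on how it was counted.

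**Figure D1:**
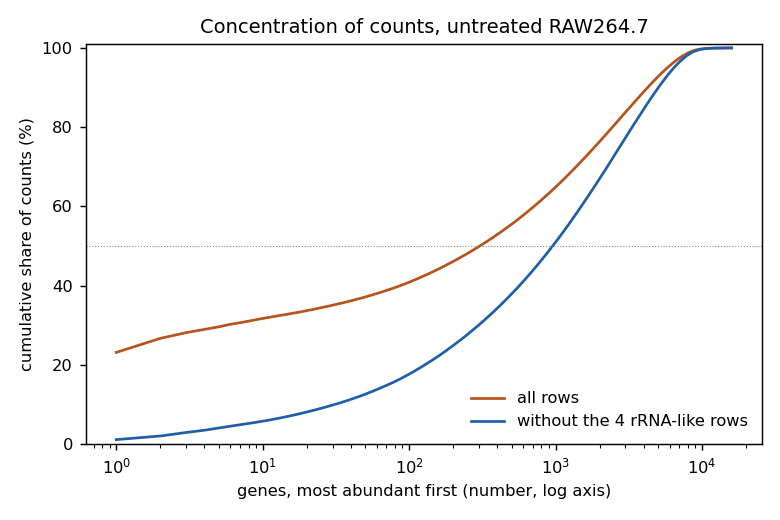
Cumulative share of counts (%, vertical axis) against the number of genes taken from the most abundant down (log axis) in the untreated library, for all rows and without the 4 rRNA-like rows. The curve for all rows starts at 23.15% because of RP23-81C12.1, and the curve without the rRNA-like rows crosses the dotted line at 50% after 955 genes.

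At a level of at least 1 CPM, 11052 genes were present, which is 26.7% of the 41320 genes outside the rRNA-like rows. At least 10 CPM was reached by 20.6% and at least 100 CPM by 6.23%. Of 20275 nuclear protein-coding genes 48.8% reached 1 CPM, 40.6% reached 10 CPM and 12.5% reached 100 CPM, and 66 genes reached 1000 CPM. These shares are the background for each gene list that follows. The median protein-coding gene among the 9893 at 1 CPM or more lay at 44.5 CPM and at a per-length level of 9.35, with the 5th percentile at 0.683 and the 95th at 89.3.

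Nuclear protein-coding genes other than ribosomal proteins and histones held 89.7% of the counts without the rRNA-like rows. The 79 cytosolic ribosomal protein genes held 3.85% (3.839 to 3.853%), small structured RNAs 2.25%, and the replication-dependent histone genes 1.74% (1.738 to 1.748%). Long non-coding RNAs held 0.620%, of which Malat1 alone was 59.0%. Mitochondrially encoded mRNAs held 0.480%, led by mt-Co1, the catalytic subunit of cytochrome oxidase, with 40.8% of that class. The 116 rows matched to a pseudogene model held 0.00877%, and the 14121 rows with no matched gene model 1.41%. The shares of pseudogenes and of the 725 long non-coding RNA rows leave out any such genes among the unmatched rows.

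By CPM the leading transcript was Rpph1, the RNA subunit of RNase P, which trims the 5′ ends of tRNA precursors. It stood at 11367 CPM (11326 to 11408) and is a single exon at chr14:50807449-50807767 on the minus strand. Actb, the cytoplasmic β-actin gene of 5 exon blocks at chr5:142903115-142906754, followed at 9115 CPM (9078 to 9152). Pkm, which makes the last ATP-yielding enzyme of glycolysis, lay at 8857 CPM, and the elongation factor Eef1a1, which brings aminoacyl-tRNA to the ribosome, at 5721 CPM. Rmrp, the RNA of RNase MRP, lay at 5650 CPM and the elongation factor Eef2 at 4469 CPM. The nuclear RNA Malat1 lay at 3658 CPM and Rn7sk, the RNA that holds the kinase P-TEFb inactive, at 3087 CPM. The remaining places among the top 10 went to the chaperone Hsp90ab1 at 3081 CPM and to the integrin chain Itga4 at 2831 CPM.

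Division by length moved several of these genes. Rpph1 remained first, at a per-length level of 35633. Rn7sk stood next at 9326 among genes with at least 300 bases of exon, a limit that leaves out the shorter Rmrp at 20850. Some of these sequences are shared with other annotated genes. Of the 50-base windows along the longest transcript, 100% were shared for Rmrp, 68.1% for Rn7sk and 60.6% for Eef1a1. The share was 0% for Rpph1, 14.2% for Actb and 34.4% for Pkm. The effect of this sharing on their levels and ranks was not tested. Itga4 moved from rank 10 by CPM to rank 195 per length because its exons span 13978 bases, and the giant scaffold proteins Ahnak and Plec, in the top 25 by CPM, ranked 501 and 441 per length. In their place came short transcripts, among them the ribosomal stalk protein gene Rplp1 at 2957, the core histone genes Hist2h2bb at 2259 and Hist1h4f at 1630 and the lysozyme Lyz2 at 1309. The ferritin light chain Ftl1, at 1601, moved from rank 18 by CPM to rank 9. Of the 25 nuclear protein-coding genes with the highest per-length level, 11 were replication-dependent histones, 5 were ribosomal proteins and 9 were others. These 9 others included Actb at 3402, Eef1a1 at 2295, Pkm at 1771, Eef2 at 1344 and Hsp90ab1 at 1027.

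The macrophage label was checked against markers of macrophages and of 12 other cell types. Of 42 macrophage and myeloid identity genes measured, 36 reached 1 CPM, against 48.8% of protein-coding genes, and their median was 75.2 CPM and 17.2 per length. Markers of the other cell types reached 1 CPM in 6 of 111 genes, with 85 genes listed at 0. Their summed level was 23.8 CPM against 9088 CPM for the identity genes. The 6 were Egfl7 at 8.12 CPM and Flt1 at 3.33, which mark endothelium, Csf3r at 3.53, the neutrophil growth factor receptor, Lck at 2.27 and Cd28 at 1.37 from the T cell list, and Cd79b at 1.88 from the B cell list. Every marker of natural killer cells, epithelium and hepatocytes was at a count of 0, as were the lineage-defining Cd3e, Ly6g, Alb and Epcam.

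**Figure D2:**
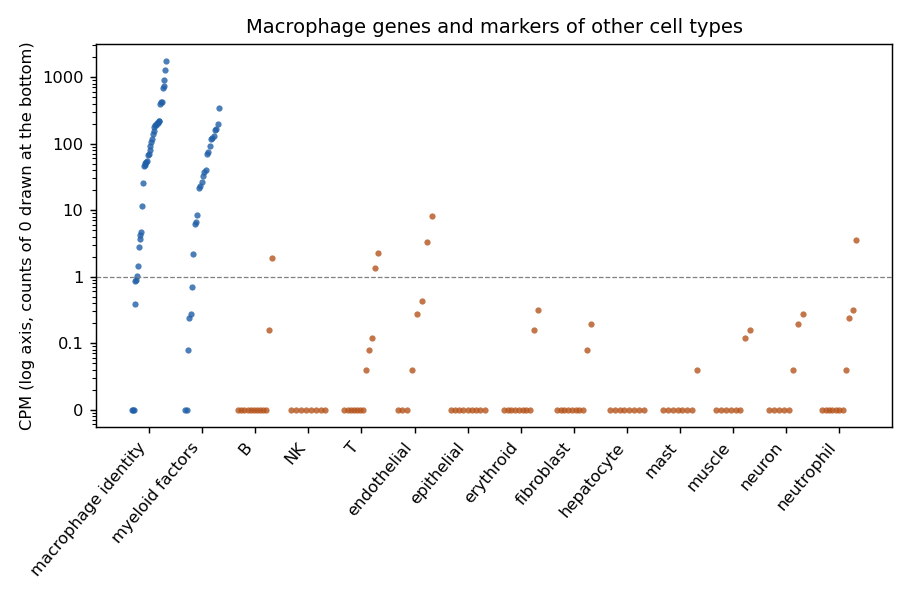
Level of each gene (CPM, log axis with counts of 0 drawn at the bottom) for macrophage identity genes, myeloid transcription factors and markers of 12 other cell types in the untreated library. The dashed line marks 1 CPM; 36 of 42 identity genes lie at or above it, and the highest marker of another cell type, Egfl7, is at 8.12 CPM.

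Among the identity genes the secreted lysozyme Lyz2 was the highest, at 1722 CPM (1706 to 1738) and 1309 per length. Cd14, which hands bacterial lipopolysaccharide to Tlr4, followed at 430.04 per length (745 CPM), ahead of the galectin Lgals3 at 364 (677 CPM) and the lysosomal glycoprotein Cd68 at 319 (401 CPM). Csf1r, the CSF1 receptor, stood at 1262 CPM (1248 to 1276), which is 219 per length, and the membrane protein Laptm5 at 239 per length. Lower in the same list were Adgre1 (F4/80), a receptor used to recognise mouse macrophages, at 16.1 per length (52.2 CPM), the common leukocyte marker Ptprc (CD45) at 11.2 and the integrin Itgam (CD11b) at 5.14, with 72.4% of the 50-base windows along its longest transcript shared with another gene. Scavenger and clearance receptors ranged from Msr1 at 35.0 per length (222 CPM) and Cd36 at 14.1 (50.6 CPM) to Cd163, Marco and Mertk at a count of 0, and the mannose receptor Mrc1 at 0.392 CPM rested on 10 counts. Genes named here because they were low or at 0 were chosen after their values were seen.

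Of 26 transcription factors of myeloid cells 20 reached 1 CPM. Spi1, which encodes PU.1, lay at 343 CPM (336 to 350) and at 127 per length, beside Cebpb at 132 and Fli1 at 34.4. Runx1 took 95.9% of the summed per-length level of the RUNX family, and Cebpb 78.5% of that of the C/EBP family, with Cebpa at 8.49%. Irf8, a factor of the monocyte lineage, lay at 70.6 CPM. Batf3 and Maf were at a count of 0, and the lipid-sensing receptor Pparg rested on 2 counts. Gata3, at 2.82 CPM from 72 counts, was the one GATA factor of 6 with a count above 0.

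Receptors for microbial products differed widely within their family. Of 16 Toll-like receptors and co-receptors 12 reached 1 CPM. Tlr2, the receptor for bacterial lipopeptides, lay at 91.3 per length (275 CPM), the trafficking chaperone Unc93b1 at 74.6 and the lipopolysaccharide receptor Tlr4 at 16.3. The RNA sensors Tlr7 and Tlr13 lay at 27.1 and 13.5, and the DNA sensor Tlr9 at 4.77. The flagellin receptor Tlr5 rested on 1 count, Tlr8 on 4 counts, and Tlr11 and Tlr12 were at 0. All 14 adaptors and kinases below the receptors reached 1 CPM, led by the adaptor Myd88 at 47.7 per length.

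Of 17 inflammasome genes 12 reached 1 CPM and 15 had a count above 0, with the sensor Nlrp3 at 27.4 per length (111 CPM), the protease Casp1 at 26.9 and the pore protein Gsdmd at 18.3. Pycard, the adaptor that links Nlrp3 to Casp1, was at a count of 0, where 3 counts set a limit of 0.118 CPM. Of the windows of 50 bases along its longest transcript 11.8% also occurred in the longest transcript of another annotated gene. The rest of the genome was not searched, and the reason for the count of 0 was not tested. The cytokine made by this pathway, Il1b, rested on 3 counts, Il18 lay at 5.80 CPM, and the sensor gene Mefv was at 0.

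Secreted signals ranged from high to undetected. Of 32 cytokines and chemokines 14 reached 1 CPM, a share of 43.8% beside 48.8% of protein-coding genes. The constitutive cytokine Mif lay at 769 per length (573 CPM), the matrix protein Spp1 at 340.3 and the chemokine Ccl3 at 87.6. Tnf, the inflammatory cytokine, lay at 97.8 CPM (94.0 to 102) and at 59.7 per length. Il6, Il10, Il12b, Ifnb1, Cxcl1 and Csf3, which macrophages make after stimulation, were at a count of 0. Of 26 interferon-stimulated genes 18 reached 1 CPM with a median of 2.71 CPM, and only Ifitm3, which blocks virus entry, passed 100 CPM, at 124. Isg15 lay at 1.25 CPM and Mx1 rested on 1 count.

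Lysosomal genes stood among the higher groups. Of 39 members 38 reached 1 CPM, with a median of 116 CPM and 25.6 per length against 9.35 for protein-coding genes at 1 CPM or more. The cysteine protease Ctsz lay at 490.4 per length, the sphingolipid activator precursor Psap at 320.2 and Cd68 at 319. By counts with no length correction Ctsb was higher than Ctsz, at 1205 CPM against 707 CPM, so the order of these cathepsins depended on length. Ctsk, the collagen-cutting cathepsin of osteoclasts, rested on 7 counts.

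Antigen presentation was split between its branches. The class I heavy chain H2-D1 lay at 211 CPM, the light chain B2m at 204 CPM and the chaperone Calr at 1445 CPM. The class II chains H2-Aa, H2-Ab1 and H2-Eb1 and their master activator Ciita were at a count of 0, while the invariant chain Cd74, their partner, lay at 365 CPM. Of 25 members measured, 20 reached 1 CPM.

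RAW264.7 cells can be turned into osteoclasts by the ligand of Tnfrsf11a (RANK), and 11 of 17 osteoclast-lineage genes reached 1 CPM. Tnfrsf11a lay at 195 CPM, the proton pump subunit Tcirg1 at 164 CPM and the osteoclast factor Nfatc1 at 119 CPM. The ion channel Clcn7 and its partner Ostm1 lay at 44.7 and 42.0 CPM, and the fusion receptor Dcstamp at 16.7 CPM. Lower were Ocstamp at 5.68 CPM, the phosphatase Acp5 at 3.69 CPM, Atp6v0d2 at 0.470 CPM and the protease Mmp9 at 0.196 CPM, and Calcr and Itgb3 were at 0.

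Genes of dividing cells were all present. All 34 mitotic genes and all 41 G1/S and replication genes reached 1 CPM, against 48.8% of protein-coding genes, with medians of 33.6 and 23.2 per length. Mki67, a marker of cycling cells, lay at 1258 CPM (1245 to 1272) and at 125 per length, the spindle checkpoint kinase Bub1b at 97.3 and the anaphase activator Cdc20 at 94.8. The replication clamp Pcna lay at 151 and the helicase subunits Mcm3 and Mcm5 at 146 and 145. Ccnd1 held 88.3% of the D-type cyclin level, with Ccnd3 at 10.4%. The cell-cycle inhibitor Cdkn1a lay at 85.3 CPM and p53 (Trp53) at 113 CPM, whereas Cdkn2a and Cdkn2b, which restrain Cdk4 and lie beside each other, were at 0.

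Replication-dependent histone mRNAs, made in S phase and lacking the poly(A) tail of other mRNAs, supplied much of the top of the per-length order. Of 67 genes 56 reached 1 CPM, with a median of 248 per length, and Hist1h4d was the highest by CPM at 1109. The H1 linker genes Hist1h1b, Hist1h1a and Hist1h1c lay at 983, 914 and 602 per length. The testis gene Hist1h1t rested on 1 count. Near-identical copies could not be told apart in part of this group: all of the 50-base windows of Hist2h2bb, 55.0% of those of Hist2h2ac and 10.2% of those of Hist1h4d also occurred in another annotated gene.

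Promoter letters were read for the same genes from the RefSeq table of 250 bases before to 50 bases after each start on GRCm38.p6. TATAAA, the core letters of the TATA box, and CCAAT, the letters bound by the factor NF-Y, were searched on both strands. TATAAA was in 31 of 52 promoters of histone genes at 1 CPM or more, or 59.6% (45.1 to 73.0%), against 12.07% of 19032 promoters of measured protein-coding genes. That count took a match anywhere in the promoter. Within the window from −45 to −16 alone, a TATA match was in 14 of the 52, or 26.9% (15.57 to 41.02%), against 2.52%. CCAAT was in 44 of the 52, or 84.6% (71.9 to 93.1%), against 37.96%. Over all these promoters TATAAA began most often 29 bases before the start, in 116 promoters against a median of 9 over positions. The 150 bases before the start are shown for the 3 histone genes highest per length among those with both motifs in that stretch, so that their arrangement can be seen, 5′ to 3′ on the strand of the gene, with TATAAA and CCAAT (or its reverse complement ATTGG) in capitals. These are chr3:96220881-96221030 (minus) for Hist2h2ac, chr13:21780626-21780775 (minus) for Hist1h1b and chr13:23581418-23581567 (plus) for Hist1h4d.
Hist2h2ac: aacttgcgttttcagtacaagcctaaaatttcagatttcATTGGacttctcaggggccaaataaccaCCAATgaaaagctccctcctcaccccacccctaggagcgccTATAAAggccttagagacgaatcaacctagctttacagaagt
Hist1h1b: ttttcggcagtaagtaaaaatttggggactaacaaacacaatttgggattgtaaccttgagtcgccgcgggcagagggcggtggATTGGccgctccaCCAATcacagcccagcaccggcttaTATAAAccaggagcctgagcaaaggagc
Hist1h4d: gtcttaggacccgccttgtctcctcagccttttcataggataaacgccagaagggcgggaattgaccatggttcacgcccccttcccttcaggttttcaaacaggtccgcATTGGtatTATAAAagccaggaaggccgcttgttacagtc
The choice required both motifs, which Hist2h2bb, Hist1h4f and Hist1h4h, higher per length, did not meet. In each of the 3 sequences TATAAA lies near the start with CCAAT letters upstream of it, and no level can be read from a match.

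Promoters of mitotic genes rarely held TATAAA and often held CCAAT. The latter was in 25 of 31 promoters of the mitotic list, or 80.6% (62.5 to 92.5%), and TATAAA in 1. The 3 highest members per length are shown in the same way with CCAAT or ATTGG in capitals, from chr7:135716380-135716529 (minus) for Mki67, chr2:118598061-118598210 (plus) for Bub1b and chr4:118437344-118437493 (minus) for Cdc20.
Mki67: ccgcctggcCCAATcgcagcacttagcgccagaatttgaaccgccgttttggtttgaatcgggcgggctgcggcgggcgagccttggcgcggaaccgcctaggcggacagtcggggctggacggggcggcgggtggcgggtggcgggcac
Bub1b: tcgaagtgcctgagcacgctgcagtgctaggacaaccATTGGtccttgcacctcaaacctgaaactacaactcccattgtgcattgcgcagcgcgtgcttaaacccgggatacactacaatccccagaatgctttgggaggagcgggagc
Cdc20: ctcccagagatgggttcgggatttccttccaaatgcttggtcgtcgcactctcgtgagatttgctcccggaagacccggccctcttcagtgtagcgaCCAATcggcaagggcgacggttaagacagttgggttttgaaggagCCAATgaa
Mki67 and Bub1b hold 1 match each in these 150 bases and Cdc20 holds 2.

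Macrophage identity genes had promoters poor in CpG. The median CpG ratio (observed CG pairs over those expected from the base composition) was 0.221 over 27 promoters of members at 1 CPM or more, against 0.613 over promoters of measured protein-coding genes and 0.878 over the mitotic list. TATAAA was in 3 of the 27. GAGGAAGT, letters of the kind bound by PU.1, was in 0 of them (exact upper limit 12.77%) against 3.19% of all. That limit lies above 3.19%, so the 0 does not set these promoters apart. Only these exact letters were searched, and other forms of the site were not. Lyz2 and Lgals3, which were among the 3 highest members per length, are shown from chr10:117282273-117282422 (minus) and chr14:47373710-47373859 (plus), with each CG in capitals to let the CpG content be seen.
Lyz2: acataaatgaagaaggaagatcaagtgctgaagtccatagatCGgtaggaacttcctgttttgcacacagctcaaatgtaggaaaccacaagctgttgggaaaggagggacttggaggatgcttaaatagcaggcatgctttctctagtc
Lgals3: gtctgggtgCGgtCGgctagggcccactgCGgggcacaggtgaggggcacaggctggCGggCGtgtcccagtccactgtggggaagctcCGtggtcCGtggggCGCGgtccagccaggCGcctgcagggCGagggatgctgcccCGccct
The Lyz2 stretch holds 1 CG and the Lgals3 stretch 12, and over all 300 bases their CpG ratios were 0.0680 and 0.563.

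Across protein-coding genes CpG content and TATAAA differed between levels. The median CpG ratio was 0.271 for genes at a count of 0, 0.441 above 0 and under 1 CPM, 0.655 from 1 to 10 CPM, 0.781 from 10 to 100 CPM, 0.833 from 100 to 1000 CPM and 0.809 at 1000 CPM or more. TATAAA ran the other way up to the middle levels, from 20.5% of promoters at a count of 0 to 5.93% at 10 to 100 CPM, and stood at 12.31% (5.47 to 22.8%) of 65 promoters, from 50 of the 66 genes, at 1000 CPM or more. Without histones and ribosomal proteins the TATAAA share at the top level was 11.7% from 60 promoters, and without genes at 0 TATAAA was in 7.39% of promoters overall. CCAAT lay between 34.4% and 43.1% over the 6 levels with no steady order, and GAGGAAGT between 2.85% and 3.89% below 1000 CPM, with 0 of 65 promoters at 1000 CPM or more. The authors' deposited table gave median half-lives of 2.43, 4.57, 6.09, 10.1 and 16.2 h for genes from the lowest level above 0 to the highest. Those half-lives use the untreated counts too, so they are no independent measure of the level.

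**Figure D3:**
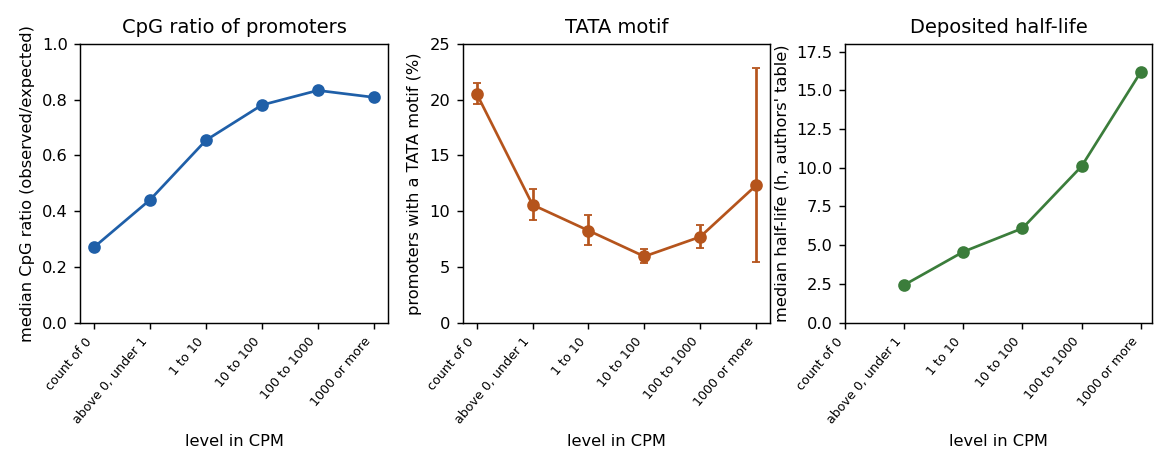
Protein-coding genes of the untreated library by level in CPM: median CpG ratio of promoters, share of promoters with TATAAA (%, bars are exact binomial 95% intervals) and median half-life in h from the authors' deposited table. The CpG ratio climbs from 0.271 to 0.833, the TATAAA share is lowest at 5.93% from 10 to 100 CPM, and the median half-life climbs from 2.43 to 16.2 h.

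The share held by the top member differed between paralogue families. In 10 of 36 families the top member held over 90% of the family's summed per-length level, in 19 it held 50 to 90%, and in 7 it held less than 50%. A family of 2 members cannot fall under 50%, which holds for those of Pkm, Eef1a1, Lyz2, Plcg2, Hsp90ab1, Arpc1b and Ftl1. The 100% of Gata3 rested on 72 counts. Ldha, the lactate dehydrogenase chain of glycolytic cells, held 100% of its family, with Ldhb and Ldhc at a count of 0. Of the 50-base windows of Ldhb 27.0% were shared with other genes. Eef1a1 and Pkm also held 100%, with Eef1a2 and Pklr at 0. Of the windows of Eef1a1 and Pkm 60.6% and 34.4% were shared with other genes, and of those of Eef1a2 and Pklr 0% and 23.2%. Lyz2 held 99.9% of the lysozymes, Aldoa 97.1% of the aldolases, and Tmsb4x, which binds actin monomers, 97.5% of the β-thymosins. Actb held 96.1% of the actins and Actg1 3.91%, but 56.7% of the windows of Actg1 were shared with another gene. Plcg2 held 93.7% of phospholipase C gamma, the form that serves immune receptors.

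**Figure D4:**
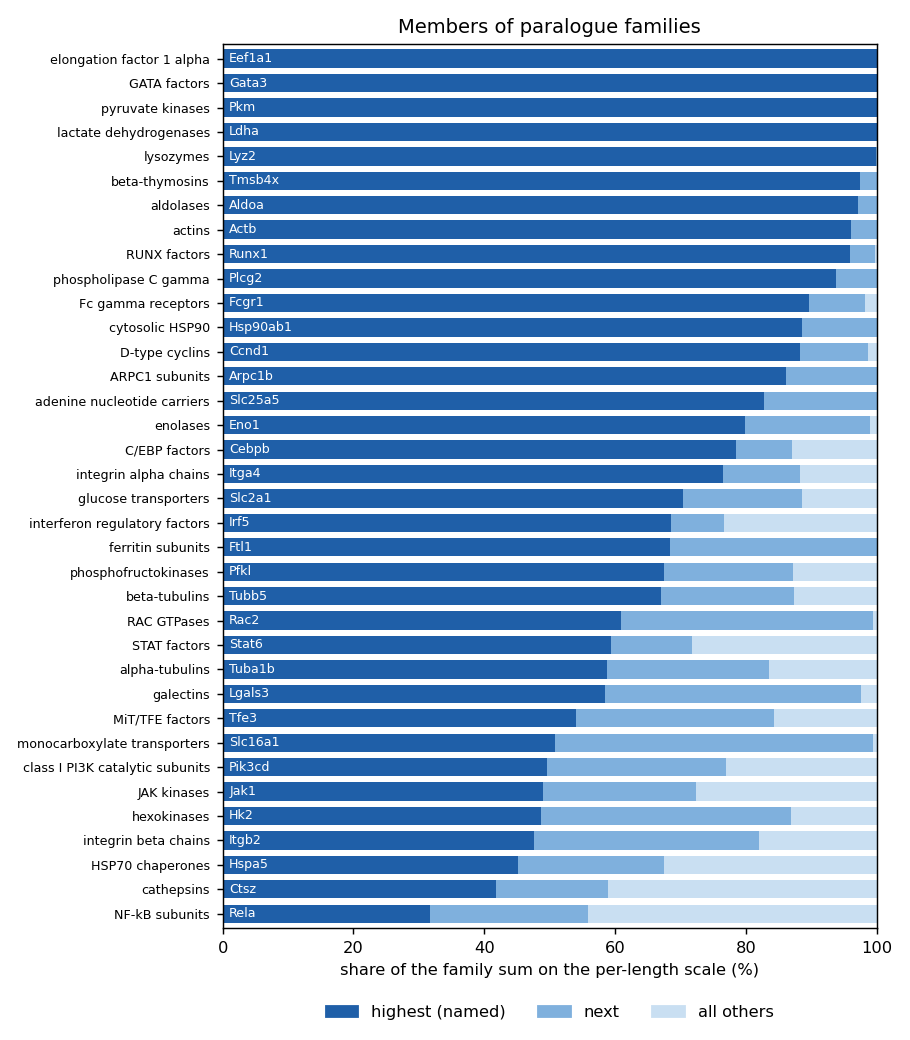
Share of the summed per-length level (%, horizontal axis) held by the highest member, the next member and all other members in 36 paralogue families of the untreated library. The highest member is named in each bar and ranges from Rela with 31.7% of the NF-kB subunits to Ldha, Pkm, Eef1a1 and Gata3 with 100%.

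Immune families split by member. Fcgr1, the high-affinity receptor for IgG, held 89.6% of the Fc gamma receptor level, Fcgr3 8.59% and the inhibitory Fcgr2b lay at 3.69 CPM. Itga4 held 76.4% of the integrin alpha level, while Itgb2, the beta chain of leukocyte integrins, and Itgb1 held 47.6% and 34.4% of the beta level. Irf5, which acts below Toll-like receptors, held 68.5% of the interferon regulatory factors with Irf8 next at 8.11%. Stat6, the factor of interleukin-4 signalling, held 59.3% of the STAT level, with Stat3 next at 12.5%. The leukocyte forms Pik3cd and Rac2 held 49.7% and 60.9% of their families, with Pik3cg at 27.2% and Rac1 at 38.5%. Among kinases of the Abl, Src, Syk and Tec families 10 of 16 reached 1 CPM. Lyn was the highest at 42.6 per length, Btk lay at 29.9, Abl2 at 23.8 and Abl1 at 10.9, the gene from which the oncogene of the Abelson virus derives. Src rested on 5 counts.

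Glycolytic genes stood high. The 20 glycolysis and lactate genes had a median of 95.8 per length and a summed level of 19917 CPM. Pkm, Aldoa and Ldha lay at 1771, 675 and 638 per length, and Gapdh, often used as a reference, at 197 (814 CPM). With the longest transcript as the length Pkm, Aldoa and Ldha lay at 3642, 1269 and 1163, which put Pkm above Eef1a1 at 3189 and Rplp1 at 2957. Slc2a1, the widely used glucose importer, held 70.4% of the glucose transporter level and the liver form of phosphofructokinase, Pfkl, 67.5% of its family. Hexokinase was shared between Hk2 with 48.7% and Hk1 with 38.2%, and lactate export between Slc16a1 with 50.8% and Slc16a3 with 48.6%. The order within the last pairs turned when the longest transcript or no length was used, as did that of Rela (31.7%) and Nfkb1 (24.1%) among the NF-kB subunits. Ftl1 held 68.4% of the ferritin level and Fth1 31.6%, an order that turned without length, and 90.6% of the Ftl1 windows were shared with other genes. In 31 of the 36 families the top member was the same under both other ways of using length.

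Iron and redox genes were nearly all present, with 14 of 15 and 20 of 21 at 1 CPM or more. The transferrin receptor Tfrc, which imports iron, lay at 110.3 per length and the exporter Slc40a1 at 0.157. Txn1, the small reductant thioredoxin, led the redox list at 303 per length, followed by Prdx1 at 164 and Gpx1 at 151. The quinone reductase Nqo1 rested on 14 counts.

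Subunits of some complexes lay close together and those of others did not. The highest and lowest of the 6 MCM helicase subunits differed by a factor of 2.20 per length around a median of 88.5. The factor was 2.49 for the 9 nuclear subunits of respiratory complex III (median 95.6), 2.60 for the 8 chaperonin subunits (median 139.5), 3.47 for the 17 subunits of the 19S proteasome (median 51.9) and 3.61 for the COPI coat (median 30.9). It was 6.85 for the actin-nucleating Arp2/3 complex, from Arpc3 at 41.7 to Arpc2 at 286, and 8.98 for the 20S proteasome core, from Psma3 at 18.6 to Psmb4 at 167. The phagocyte NADPH oxidase, which makes superoxide, had a median of 93.3 and its highest level in Cyba at 213. The median protein-coding gene at 1 CPM or more lay at 9.35, below the median of each of these complexes.

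**Figure D5:**
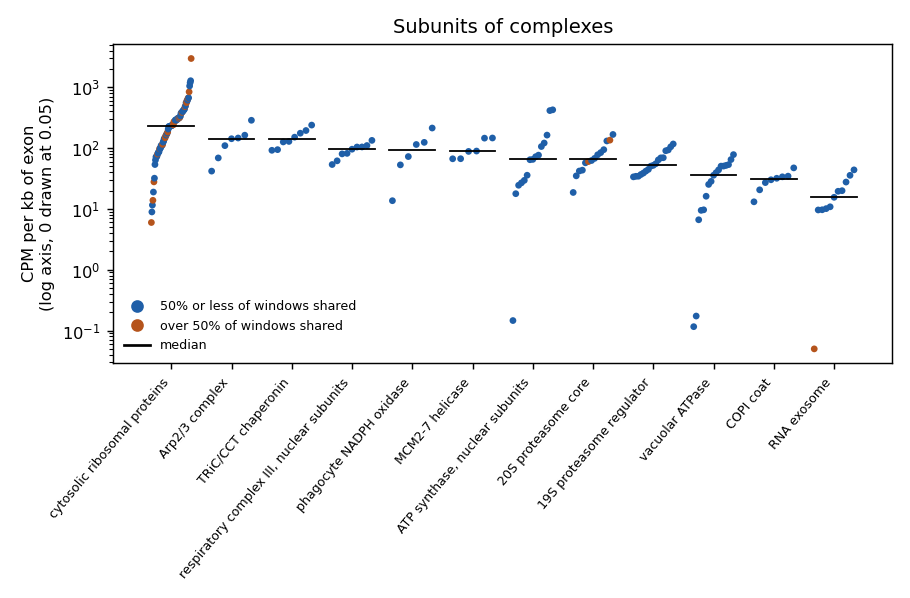
Per-length level (CPM per kb of exon, log axis, 0 drawn at 0.05) of each subunit in 12 complexes of the untreated library, with the median as a bar and subunits with over 50% of 50-base windows shared with another gene in a second colour. MCM subunits lie within a factor of 2.20, and single low points mark Atp5l, Atp6v0d2, Atp6v0c and Exosc6.

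Wide spreads came with single low subunits. Atp5l, a small subunit of the mitochondrial ATP synthase, rested on 24 counts at 0.941 CPM (0.603 to 1.40), while Atp5a1 and Atp5b lay at 424 and 412 per length. Atp6v0c, the proton-carrying ring subunit of the vacuolar ATPase, rested on 10 counts at 0.392 CPM (0.188 to 0.721) beside Atp6v0b at 77.9 per length. Of their windows 7.19% and 12.2% were shared with other annotated genes. Exosc6, a subunit of the RNA exosome core, was at 0 with 100% of its windows shared. Among ribosomal proteins Rplp1 was the highest at 2957 per length, with 60.0% of windows shared. The 23 ribosomal protein genes with over 50% of windows shared had a median of 269 per length and the other 56 a median of 229.

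Counts of 0 were most frequent among genes with nearly all of their sequence shared. Of 393 protein-coding genes with over 90% of windows shared 81.2% were at 0, against 39.0% of 10190 genes with no shared window. In between, the share at 0 was 36.7%, 46.3% and 51.7% for up to 10%, 10 to 50% and 50 to 90% of windows shared. Of the 13 mitochondrial mRNAs, 6 were listed at 0 in all 4 libraries, namely mt-Co2, mt-Co3, mt-Atp6, mt-Nd3, mt-Nd4l and mt-Atp8. The first 5 had at least 98.0% of windows shared with another gene, whereas mt-Atp8 had 0%. The other 7 ranged from mt-Nd6 at 51.9 CPM to mt-Co1 at 1961 CPM. Among them mt-Nd4, at 153 CPM, and mt-Co1 had 62.2% and 51.1% of windows shared. All 22 mitochondrial tRNAs were listed at 0 in all 4 libraries. The treatment of multi-mapping reads being unstated, its part in these zeros was not tested.

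The label of cytoplasmic RNA was set against RNAs known to stay in the nucleus. Malat1, the abundant RNA of nuclear speckles, lay at 3658 CPM (3635 to 3682), rank 7 in the library, and at 524 per length. Neat1, the scaffold of paraspeckles, lay at 489 CPM (480.3 to 497) and Kcnq1ot1, an imprinted antisense RNA, at 202 CPM over a single annotated exon of 93092 bases. The nuclear RNAs Rn7sk, Scarna2 and Scarna6 lay at 3087, 203 and 73.6 CPM, and telomerase RNA, Terc, at 47.5 CPM. Of the windows of Rn7sk 68.1% were shared with another gene, against 0% for Scarna2, Scarna6 and Terc. Of 10 nuclear long RNAs measured, 5 reached 1 CPM, against 26.7% of all genes. With no nuclear library beside it, the share of nuclear RNA in this sample cannot be given. The extraction protocol in the labels names no fractionation step. The 7SL RNAs of the signal recognition particle, Rn7s1 and Rn7s2, which are cytoplasmic, stood at 0 and 2 counts, with 100% of their windows shared. The Y RNAs Rny1 and Rny3 stood at 5 counts each, with 19.05% and 0% shared.

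Y-linked genes were present and Xist was near 0. The 4 broadly expressed Y-linked genes all reached 1 CPM, with Ddx3y, an RNA helicase, at 54.7 CPM (51.9 to 57.7) and Eif2s3y at 46.8 CPM. Xist, the RNA that silences an X chromosome in female cells, rested on 2 counts at 0.0784 CPM (0.00950 to 0.283).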

How the data were processed

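RNA of RAW264.7 cells was sequenced in 4 libraries, 1 for each time, and the untreated library was taken by its label. A directional kit was used after rRNA depletion, per the labels' protocols. The submitters' processing notes name mm10 as the build and list STAR 2.5.3a, Subread 1.6.3 and featureCounts. Not given in the sources used here are the annotation release, strand setting, read length and treatment of multi-mapping reads. The authors' deposited raw counts per gene were used as deposited. Their normalized signal columns, which the authors made by dividing each library by 1 number, were not used for levels. The half-life score in the authors' deposited table served only for medians by level, with no filter on its fit score. Columns not matched to a sample numbered 0.

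CPM used the counts without the 4 rRNA-like rows (mt-Rnr1, mt-Rnr2, RP23-81C12.1, RP23-81C12.3). Per-length levels used the union exon length of GENCODE M21, to which 27201 symbols were matched (26934 by the same symbol, 267 by an older one). These held 98.6% of the counts. Where a symbol had several gene models, a protein-coding one and then the lower gene ID was taken, a choice made after values were seen. Shared windows are the 50-base stretches of a gene's longest transcript found on either strand in the longest transcript of another annotated gene. They, the choice of promoters by list and those printed were also added after values were seen, as was a count of complexes without subunits sharing over 50% of windows. Histone promoters were matched through RefSeq synonyms.

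With 1 library no test was made. Named genes were the top 25 by CPM and per length (exons of at least 300 bases), the 3 highest of each of 82 lists, members of families and complexes, markers at 1 CPM or more, and 7 benchmarks, without predicted models. Further members were named after their values were seen. The members and lists were chosen with earlier results of these data known. Alternatives were other denominators, effective library sizes from edgeR 4.0.16 and DESeq2 1.42.0 (R 4.3.3), other count minimums, and other lengths. Other steps used Python 3.11.15 with pandas 2.3.3 and scipy 1.17.1. The level and interval code was tested on simulated data. Results for some genes are not reported here.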

Additional observations from a re-analysis of the deposited data

How the results depend on the processing

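With 1 library, counting error was the only error available, and the precision of a level rests on its count. Genes reaching 50% of counts numbered 304 with all rows and 227 with counts per length. With all rows in the denominator the shares were 2.75% for ribosomal proteins, 1.25% for histones, 1.61% for small structured RNAs, 0.443% for long non-coding RNAs and 0.343% for mitochondrial mRNAs. With protein-coding counts as the denominator ribosomal proteins held 4.04% and histones 1.83%. The share of promoters with TATAAA was 7.39% without genes at 0. Some ratios between paralogues changed direction. Without length correction the log2 ratio of Ctsz to Ctsb was −0.77 and that of Ftl1 to Fth1 −0.26. With the longest transcript and with no length in turn, the log2 ratio was −0.53 and −0.16 for Hk2 to Hk1, −0.23 and −0.20 for Slc16a1 to Slc16a3, and −0.97 and −1.58 for Rela to Nfkb1. Scaling by effective library size multiplied every level by 0.975 (TMM) or 0.983 (DESeq2 size factors). No paired analysis was possible because each time had 1 library and no replicate number.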
